A study of Mus musculus with 6 samples.

Results

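The 10 genes described here encode carriers of taurine and amino acids in the plasma membrane, or a chain of such a carrier, in the mouse heart. They are Slc6a6, Slc7a1, Slc7a2, Slc7a5, Slc7a8, Slc3a2, Slc38a1, Slc38a2, Slc1a5 and Slc43a1. The list was selected on function and on earlier results of these same FPKM values, among them the large difference in Slc6a6, and all 10 were found by symbol among the 23808 genes of the deposited table. For that reason, every difference between the diets in these 10 genes is a description and carries no test. RNA came from hearts of wild-type (WT) female mice, with 3 libraries from a high-fat diet (HFD) and 3 from normal chow (NC), each given from week 4 to week 12 of age. The labels name no other allele or agent in either group, and strain and kind of fat are not given there. Whether each library was a separate animal is not stated either, so p-values reflect spread between libraries that may be technical. Heart RNA mixes all cell types of the tissue taken, and in such samples fewer cells of a type and less RNA per cell cannot be told apart.

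Heart muscle holds taurine at far higher concentration than plasma, and it keeps this gradient with a carrier that couples taurine to sodium and chloride, the product of Slc6a6. Taurine serves there as an osmolyte and in calcium handling, and mice without Slc6a6 lose most cardiac taurine and develop a cardiomyopathy. Neutral amino acids enter by sodium-coupled carriers (Slc38a1, Slc38a2), by the sodium-dependent exchanger Slc1a5 and by the exchangers of system L. Those exchangers are light chains (Slc7a5, Slc7a8) that reach the membrane only when bonded to the heavy chain Slc3a2. Slc43a1 is a facilitative carrier of large neutral amino acids, and Slc7a1 and Slc7a2 carry the cationic amino acids arginine and lysine.

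Values are FPKM, which divide the fragments of a gene by its length and by the fragments of the library, so levels can be set side by side between genes. The program that computed them is not given, so the gene lengths behind such comparisons could not be checked. The summed FPKM was 576334 to 708120 in the HFD libraries and 694956 to 739406 in the NC libraries, and the depth in reads is unknown. HFD 1 was listed at 0 for 5 abundant genes, 4 of them mitochondrially encoded, and a further abundant gene, Gm28437, was listed at 0 in HFD 1, HFD 2 and NC 2. None of the 10 transporters was listed at 0 in any library. A list of 7 cardiomyocyte markers, among them Myh6 and Tnnt2, summed to 21525 to 23568 FPKM in the HFD libraries and 24122 to 32126 FPKM in the NC libraries, and none of them was listed at 0. Atrial markers varied widely within both diets, between 428 and 7032 FPKM summed on HFD and between 344 and 13770 FPKM on NC, with Bmp10 listed at 0 in some libraries and 1 of 5 with a positive log2 fold change.

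The 10 genes fell into an abundant and a low group. Slc1a5, Slc3a2, Slc38a2 and Slc6a6 averaged 23.1, 16.8, 16.2 and 12.9 FPKM over the 6 libraries, and lay at the 83.5, 78.3, 77.6 and 73.0 percentiles of the 11456 genes that averaged 1 FPKM or more, the minimum set for testing. Slc7a1 at 2.74 FPKM and Slc38a1 at 1.05 FPKM also passed this minimum. Slc43a1, Slc7a2, Slc7a5 and Slc7a8 averaged 0.824, 0.656, 0.606 and 0.448 FPKM and did not, so 6 of the 10 genes entered the fit over all genes. In every one of the 6 libraries Slc6a6 lay above Slc7a1, and Slc7a1 above Slc38a1. The other 7 of the 9 neighbouring pairs changed places in at least 1 library, so their order is not resolved by these libraries. The order was taken from the same 6 libraries and is given without a test.

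**Figure D1:**
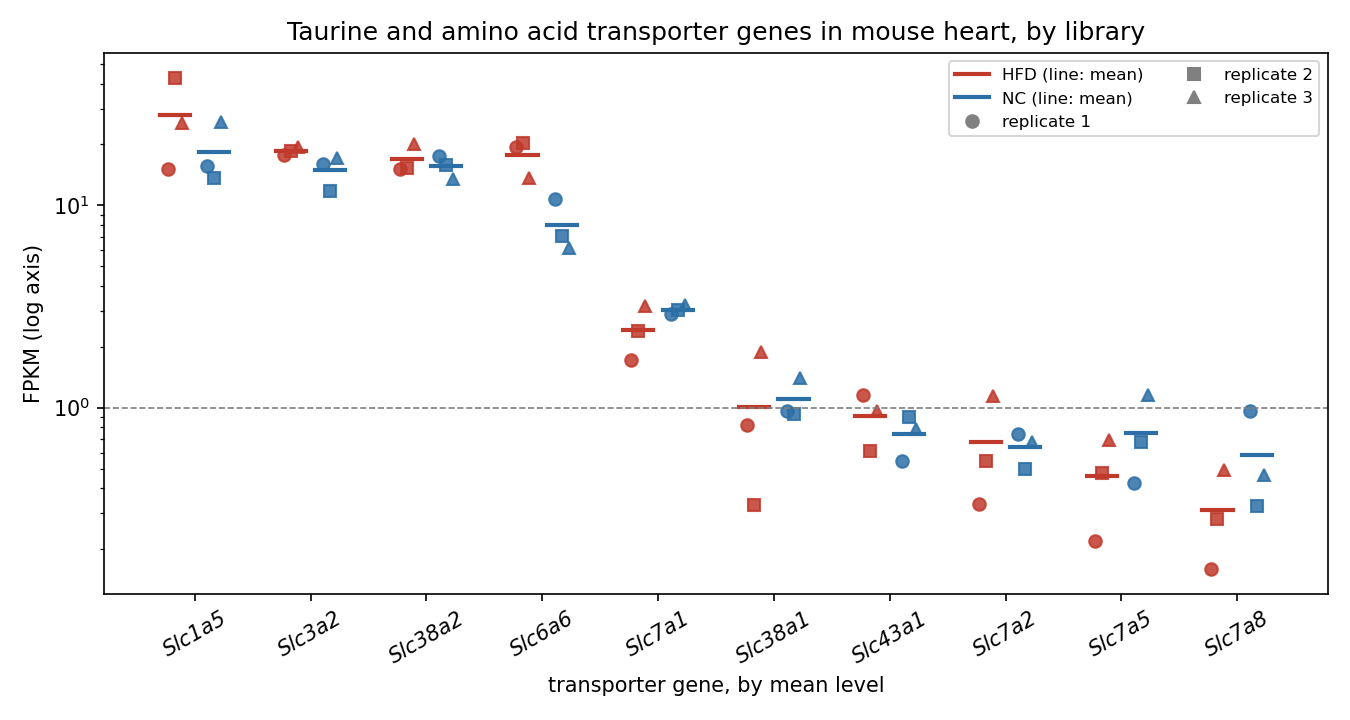
FPKM on a log axis for the 10 transporter genes, ordered by mean level, with HFD in red left of NC in blue, a marker shape per replicate and a line at each mean. The dashed line marks 1 FPKM, and in Slc6a6 and Slc3a2 all 3 HFD points lie above all 3 NC points.

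Slc6a6, the taurine carrier, showed the widest separation of the diets among the 10 genes. It was at 19.4 (HFD 1), 20.3 (HFD 2) and 13.7 FPKM (HFD 3) on HFD, against 10.8 (NC 1), 7.08 (NC 2) and 6.15 FPKM (NC 3) on NC. The lowest HFD library stood above the highest NC library, and the means were 17.8 ± 3.56 FPKM on HFD and 8.01 ± 2.46 FPKM on NC (SD, n = 3 each), a ratio of 2.22. On the log2(FPKM + 1) scale, which understates the change of low genes, HFD minus NC was 1.08 (SE 0.25). Leaving out any 1 library gave 0.93 to 1.29, and other scalings between libraries gave 1.06 to 1.10, with the diets apart in each. Slc6a6 and Slc3a2 were 2 of the 6 tested transporters whose diets did not overlap, where 3.25% of tested genes had all HFD libraries above all NC libraries and 8.13% did not overlap in either direction. Over all genes 0 of 11456 passed a Benjamini-Hochberg adjusted p of 0.05 with limma, 0% of those tested, and 415 genes (3.62%) had an unadjusted p under 0.05, 151 (1.32%) with HFD above NC and 264 (2.3%) with HFD below NC. By GENCODE annotation of mm10 this protein-coding gene spans positions 91684053 to 91759066 of chromosome 6 (plus strand). Its exons overlap those of Gm44981 on the other strand over 117 bases, or 1.38% of their length, and no source used here says whether strand was used in counting.

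The spread of Slc6a6 between libraries went along with markers of endothelial cells. These 8 markers, among them Pecam1 and Cdh5, had a mean log2(FPKM + 1) of 5.47, 5.59 and 5.34 in HFD libraries 1, 2 and 3 and of 5.55, 5.23 and 5.07 in NC libraries 1, 2 and 3. Within each diet the libraries stood in the same order by Slc6a6 and by this mean, HFD 2 first and HFD 3 last, and NC 1 first and NC 3 last. By the summed FPKM of the markers the NC order differed, with NC 2 (415 FPKM) below NC 3 (422 FPKM). The marker means of the diets overlapped, since NC 1 lay above HFD 1 and HFD 3, whereas the Slc6a6 values did not. Summed, the 8 markers came to 422 to 621 FPKM on HFD and 415 to 454 FPKM on NC, all 8 had a positive log2 fold change (median 0.14), and none was listed at 0. This list was picked for mention after its values were seen, out of 11 marker lists set beside each of the 6 tested transporters. With the mean of each diet taken out, Slc6a6 and this list had a Pearson r of 0.96. Other pairs were nearly as large in size, such as Slc38a2 with cardiomyocyte (0.93), Slc7a1 with lymphocyte (−0.93) and Slc3a2 with fibroblast markers (0.87). Of the other marker lists, 3 had sums that did not overlap between the diets, all lower on HFD. Macrophage markers summed to 68.4 to 99.0 FPKM on HFD and 103 to 136 FPKM on NC, with 0 of 6 positive and none listed at 0. Pericyte and smooth muscle markers summed to 181 to 234.8 FPKM on HFD and 235.1 to 307 FPKM on NC, with 1 of 7 positive and none listed at 0. The sums of the cardiomyocyte markers given above did not overlap either, with 1 of 7 positive. By mean log2 level the cardiomyocyte markers did overlap, with HFD 3 at 10.76 above NC 3 at 10.53. The macrophage and the pericyte and smooth muscle markers did not overlap by that measure. The part of these cell types in the Slc6a6 difference was not tested.

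Ranked by Pearson correlation of log2(FPKM + 1) with Slc6a6 over the 6 libraries, the 5 closest of all tested genes were the tyrosine phosphatase gene Ptprr (r = 0.990), the butyrophilin-like gene Btnl9 (0.988), the tropomodulin gene Tmod3 (0.987), the transcription factor gene Cebpg (0.985) and Edrf1 (0.984). With the mean of each diet taken out, the same 5 coefficients ran from 0.942 to 0.981. The 5 genes were picked on these same libraries, so these values are no separate check of the likeness. Btnl9 was at 27.9, 25.6 and 16.03 FPKM in HFD libraries 1, 2 and 3 and at 15.1, 9.59 and 8.06 FPKM in NC libraries 1, 2 and 3. These 6 libraries share their normalisation, and the ranking is a description.

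Slc3a2, the heavy chain of the system L and other exchangers, was the other gene whose diets did not overlap, by a narrow margin. It stood at 17.8, 18.7 and 19.5 FPKM in HFD libraries 1, 2 and 3 and at 16.1, 11.7 and 17.2 FPKM in NC libraries 1, 2 and 3. HFD 1 and NC 3 nearly touched, and NC 2 stood apart below the rest. The means were 18.7 ± 0.810 FPKM on HFD and 15.0 ± 2.89 FPKM on NC (SD, n = 3 each), with a log2 difference of 0.31 (SE 0.22) that was 0.16 without NC 2. The diets overlapped after rescaling to the summed FPKM without the abundant genes listed at 0, at a difference of 0.29.

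The system L light chains were the lowest of the 10 genes by mean over the 6 libraries, an order these libraries do not resolve. Slc7a5, the transporter of leucine and other large neutral amino acids, was at 0.220, 0.473 and 0.691 FPKM in HFD libraries 1, 2 and 3 and at 0.423, 0.677 and 1.15 FPKM in NC libraries 1, 2 and 3. Slc7a8, which carries a wider range of neutral amino acids, was at 0.159, 0.282 and 0.493 FPKM in the HFD libraries and at 0.968, 0.326 and 0.462 FPKM in the NC libraries. The values of both genes overlapped between the diets. The log2(FPKM + 1) difference was −0.25 for Slc7a5 and −0.26 for Slc7a8, and leaving out 1 NC library shrank each to −0.09, NC 3 for Slc7a5 and NC 1 for Slc7a8. Both differences were larger on the log2(FPKM + 0.1) scale, at −0.60 for Slc7a5 and −0.71 for Slc7a8. The ratio of the mean FPKM, HFD over NC, was 0.614 for Slc7a5 and 0.532 for Slc7a8. The summed level of both genes averaged 0.773 ± 0.403 FPKM on HFD and 1.34 ± 0.309 FPKM on NC (SD, n = 3 each).

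In FPKM, Slc3a2 exceeded the sum of its light chains in all 6 libraries, by little in NC 3 and HFD 3. The 6 light chains Slc7a5, Slc7a6, Slc7a7, Slc7a8, Slc7a10 and Slc7a11 summed to 4.85, 6.44 and 14.8 FPKM in HFD libraries 1, 2 and 3 and to 11.1, 4.40 and 15.6 FPKM in NC libraries 1, 2 and 3. Slc3a2 was 3.68, 2.90 and 1.32 times this sum in the HFD libraries and 1.45, 2.67 and 1.11 times in the NC libraries. Most of the swing came from Slc7a7, a light chain for cationic amino acid exchange, at 2.39, 1.29 and 8.69 FPKM in the HFD libraries and 4.00, 0.751 and 8.70 FPKM in the NC libraries. Without it the light chains summed to 2.47 to 6.08 FPKM on HFD and 3.65 to 7.06 FPKM on NC. Slc7a7 was highest in HFD 3 on HFD and in NC 3 on NC, as were the atrial markers, with mean log2 levels of 6.41, 5.07 and 9.47 in HFD libraries 1, 2 and 3 and 8.23, 4.12 and 10.1 in NC libraries 1, 2 and 3. Fibroblast markers stood in the same order within both diets as Slc7a7 and the atrial markers, with mean log2 levels of 4.84, 4.75 and 5.48 in the HFD libraries and 5.63, 4.85 and 5.78 in the NC libraries. They summed to 680 to 1212 FPKM on HFD and 621 to 1268 FPKM on NC, with 1 of 7 positive and none listed at 0. Schwann cell markers were also highest in HFD 3 and NC 3, at sums of 2.33 to 6.86 FPKM on HFD and 3.42 to 8.26 FPKM on NC. Of these 3 markers 2 were tested, with 0 positive, and none was listed at 0. These lists were picked after the values were seen, and the part of any of these cell types in the swing was not tested.

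**Figure D2:**
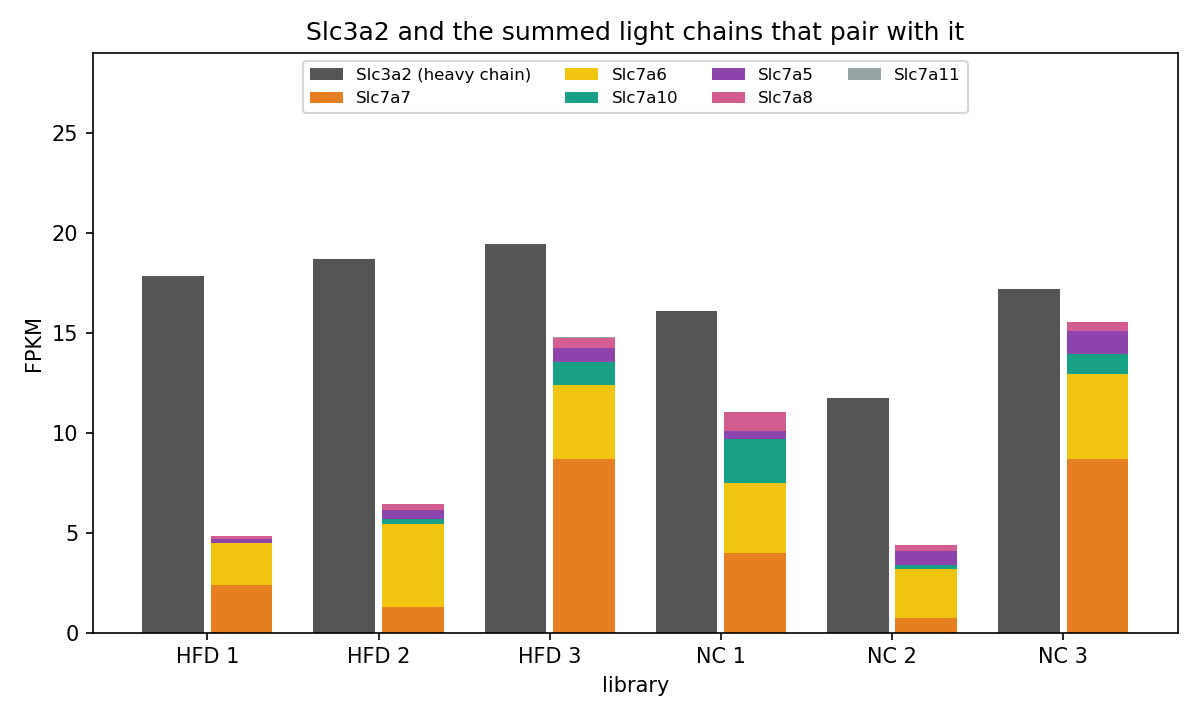
FPKM of Slc3a2 (grey bars) and of its light chains stacked beside it, for each of the 3 HFD libraries and then the 3 NC libraries. Slc3a2 stays between 11.7 and 19.5 FPKM while the stack runs from 4.40 to 15.6 FPKM, mostly with Slc7a7 in orange.

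Slc1a5, an exchanger of glutamine and other small neutral amino acids, was the most abundant of the 10 genes on average. Its level was 15.1, 42.8 and 25.6 FPKM in HFD libraries 1, 2 and 3, against 15.6, 13.7 and 25.8 FPKM in NC libraries 1, 2 and 3. HFD 2 stood far above all other libraries, while HFD 1 and HFD 3 lay within the NC range. The means were 27.9 ± 14.0 FPKM on HFD and 18.4 ± 6.49 FPKM on NC (SD, n = 3 each), and the log2 difference of 0.51 (SE 0.34) was 0.15 without HFD 2 and 0.87 without HFD 1. Its residual SD within the diets was 0.60 on the log2 scale, at the 95.9 percentile of tested genes, where the median was 0.28. This was the largest residual SD of the 6 tested transporters on that scale, but as a ratio of the highest to the lowest library Slc38a1 (5.71) and Slc6a6 (3.30) spanned more than Slc1a5 (3.12).

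The sodium-coupled carriers Slc38a1 and Slc38a2 both take up glutamine and alanine, and their genes lie close together on the minus strand of chromosome 15 (96571418 to 96642913 and 96687392 to 96699730 in mm10), yet their levels were far apart. Slc38a2, a gene known to respond to amino acid shortage, was at 15.1, 15.4 and 20.1 FPKM in HFD libraries 1, 2 and 3 and at 17.4, 15.8 and 13.5 FPKM in NC libraries 1, 2 and 3. The diets overlapped and all 6 values were within a ratio of 1.49 of each other, the narrowest range of the 10 genes. Its log2 difference of 0.10 (SE 0.22) turned to −0.02 without HFD 3.

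Slc38a1 was at 0.816, 0.330 and 1.89 FPKM in the HFD libraries and at 0.962, 0.929 and 1.40 FPKM in the NC libraries. The highest and the lowest library were both HFD libraries, and the log2 difference of −0.13 (SE 0.28) turned to 0.13 without HFD 2 and was −0.43 without HFD 3. On the log2(FPKM + 0.1) scale it was −0.36. Within each diet the order of the libraries by Slc38a1 was the reverse of that by 5 erythroid markers, such as the globin genes Hba-a1 and Hbb-bs. The mean log2 level of these markers was 9.45, 10.2 and 6.92 in HFD libraries 1, 2 and 3 and 9.11, 9.58 and 7.59 in NC libraries 1, 2 and 3. Summed, they came to 1241 to 13371 FPKM on HFD and 2025 to 8294 FPKM on NC, all 5 had a positive log2 fold change, and none was listed at 0. The atrial and the fibroblast markers, with the levels given for Slc7a7, stood in the same order as Slc38a1 within both diets. These relations were also picked after the values were seen, out of all pairs of the 6 tested transporters and 11 marker lists. The part of blood, atrial tissue or fibroblasts in the Slc38a1 values was not tested. Slc38a2 was 18.5, 46.6 and 10.7 times as abundant as Slc38a1 in the HFD libraries and 18.1, 16.9 and 9.66 times in the NC libraries.

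**Figure D3:**
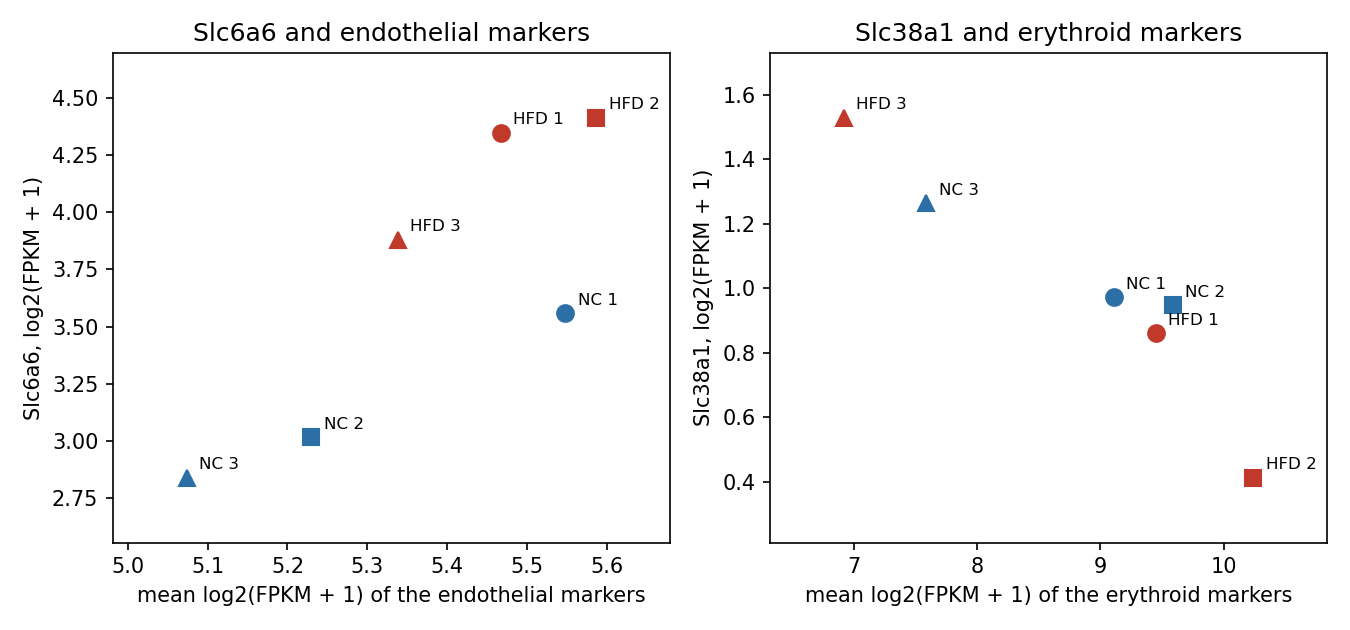
Each point is 1 library (HFD red, NC blue), with log2(FPKM + 1) of Slc6a6 against the mean of the endothelial markers at left and of Slc38a1 against the mean of the erythroid markers at right. Within each diet Slc6a6 is higher where the endothelial mean is higher, with the HFD points above, and Slc38a1 is lower where the erythroid mean, which spans 6.92 to 10.2, is higher. Both pairs were picked after their values were seen.

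The cationic amino acid carriers did not separate the diets. Slc7a1, the widely expressed arginine carrier, was at 1.71, 2.39 and 3.17 FPKM in HFD libraries 1, 2 and 3 and at 2.91, 3.04 and 3.20 FPKM in NC libraries 1, 2 and 3. HFD 1 and HFD 2 lay below all NC libraries and HFD 3 within their range. The means were 2.42 ± 0.728 FPKM on HFD and 3.05 ± 0.144 FPKM on NC (SD, n = 3 each), and the log2 difference was −0.27 (SE 0.23), or −0.11 without HFD 1 and −0.42 without HFD 3. After quantile normalization all HFD values lay below all NC values, at a difference of −0.26.

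Slc7a2, which also gives rise to a low-affinity isoform in liver, was at 0.334, 0.546 and 1.14 FPKM in the HFD libraries and at 0.745, 0.495 and 0.674 FPKM in the NC libraries. The diets overlapped, and the log2 difference of 0.01 ran from −0.19 without HFD 3 to 0.15 without HFD 1, and it was −0.05 on the log2(FPKM + 0.1) scale. The exons of Slc7a2 overlap those of Gm26584 on the other strand over 635 bases, or 6.95% of their length, so reads of the 2 genes may not be told apart. Slc7a1 was 5.13, 4.37 and 2.77 times as abundant as Slc7a2 in the HFD libraries and 3.91, 6.15 and 4.75 times in the NC libraries.

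Slc43a1, the facilitative carrier, was at 1.15, 0.608 and 0.962 FPKM in HFD libraries 1, 2 and 3 and at 0.545, 0.894 and 0.783 FPKM in NC libraries 1, 2 and 3. The diets overlapped. The log2 difference was 0.13, or 0.03 without HFD 1, and 0.24 on the log2(FPKM + 0.1) scale.

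Of the 6 tested transporters 4 had a positive and 2 a negative log2 fold change, with a median of 0.21, beside −0.02 over all 11456 tested genes. Over all 10 genes without a minimum level 6 were positive and 4 negative, with a median of 0.05, beside −0.01 over 22234 genes. The summed FPKM of the 10 genes was 71.8, 102 and 87.3 in the HFD libraries and 66.5, 54.6 and 70.3 in the NC libraries. Slc6a6 made up 27.0, 19.9 and 15.7% of this sum in HFD libraries 1, 2 and 3 and 16.2, 12.97 and 8.75% in NC libraries 1, 2 and 3. That share overlapped between the diets, because HFD 3 lay below NC 1.

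**Figure D4:**
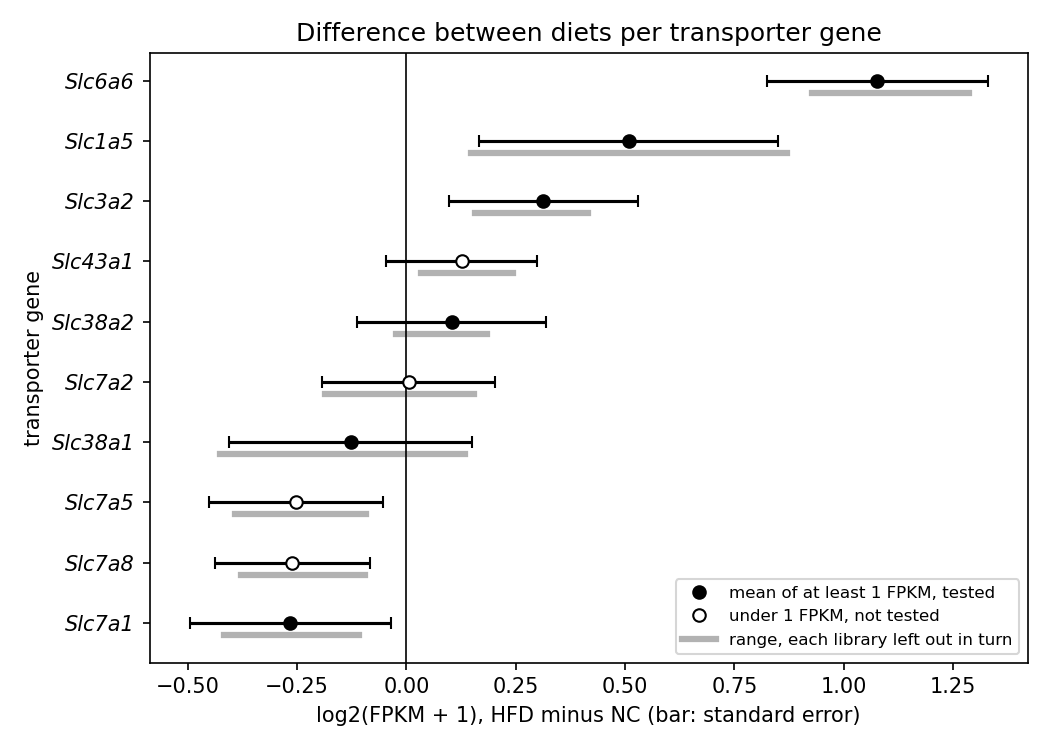
Difference of log2(FPKM + 1), HFD minus NC, with its standard error for the 10 transporter genes, filled where the gene was tested and open where its mean was under 1 FPKM. Grey bars give the range with each library left out in turn, from 0.93 to 1.29 for Slc6a6 and across 0 for Slc38a1, Slc38a2 and Slc7a2.

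Promoter windows of 250 bases before to 50 bases after a start site were matched in RefSeq (GRCm38.p6, the build called mm10) for 5 of the 10 genes, Slc3a2, Slc7a1, Slc7a8, Slc38a2 and Slc43a1. The search covered 6 motifs on both strands, namely the amino acid response sequences TTGCATCA and TGATGNAA, the E-box CACGTG, the glucocorticoid receptor palindrome, the tonicity element and the cyclic AMP response element TGACGTCA. The windows of Slc3a2, whose diets did not overlap, and of Slc43a1, the only window with a match, are shown 5′ to 3′, with the match in capitals. Both start sites lie inside the longer GENCODE gene.
Slc3a2, chr19:8713848-8714147, minus strand: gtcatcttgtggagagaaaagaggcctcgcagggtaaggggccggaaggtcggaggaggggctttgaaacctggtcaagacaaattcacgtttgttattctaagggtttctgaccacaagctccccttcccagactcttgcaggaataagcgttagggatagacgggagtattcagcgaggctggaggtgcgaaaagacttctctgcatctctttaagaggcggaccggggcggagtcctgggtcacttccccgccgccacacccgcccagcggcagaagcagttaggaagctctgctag
Slc43a1, chr2:84840073-84840372, plus strand: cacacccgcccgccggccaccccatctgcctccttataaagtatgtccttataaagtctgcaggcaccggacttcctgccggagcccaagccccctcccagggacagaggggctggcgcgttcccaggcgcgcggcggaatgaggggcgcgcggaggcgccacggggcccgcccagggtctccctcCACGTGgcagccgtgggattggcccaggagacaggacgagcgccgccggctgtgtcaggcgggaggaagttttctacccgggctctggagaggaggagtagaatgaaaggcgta
The capitals mark an E-box that begins 64 bases before the start site. An E-box stood in 7.15% of the 32851 windows of this length in the table, which holds more than 1 window for some genes. The other motifs stood in 0.895% (TTGCATCA), 3.97% (TGATGNAA), 0.475% (glucocorticoid receptor palindrome), 19.7% (tonicity element) and 1.79% (TGACGTCA) of windows. These letters were not in the other windows of the transporters, which says nothing of the factors that bind them. The Slc38a2 window was the richest in G and C of the 5 genes, at 73.0%, against a median of 52.7% over all windows, and held 41 CpG dinucleotides.

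Genes around these carriers were taken from 6 lists that do not contain the 10 genes. Of their 68 tested entries 0 passed an adjusted p of 0.05 in either direction with limma. An unadjusted p under 0.05 was found for 3 of the 68, all higher on HFD, where 3.62% of all tested genes had one in either direction and 1.32% with HFD above NC. The share in either direction was close to that background, and the 3 genes are given as values. They were chosen on that p, so diets that do not overlap in them are no separate result. All HFD libraries lay above all NC libraries in 3.25% of all tested genes. Among other amino acid transporter families 37 of 42 genes were matched and 16 tested, 8 with a positive and 8 with a negative log2 fold change (median 0.01). The gene with an unadjusted p under 0.05 was Slc43a3, a relative of Slc43a1 known in human cells as a purine nucleobase carrier, at 43.2, 56.6 and 52.6 FPKM in the HFD libraries and 38.4, 25.0 and 38.2 FPKM in the NC libraries. The diets did not overlap, and its log2 fold change was 0.59 (SE 0.23, limma adjusted p = 0.9998), or 0.39 without NC 2.

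The list of taurine synthesis and conjugation had 5 tested genes, Cdo1, Csad, Ado, Fmo1 and Got1, 2 positive and 3 negative (median −0.06). Got1, an aspartate aminotransferase that does not itself make or conjugate taurine, was among the negative genes (−0.17). Fmo1, a flavin monooxygenase that can oxidise hypotaurine to taurine, was at 37.8, 47.8 and 35.98 FPKM in the HFD libraries and 31.6, 23.5 and 23.1 FPKM in the NC libraries, and these did not overlap (log2 fold change 0.62, SE 0.22, limma adjusted p = 0.9998). Cdo1, the cysteine dioxygenase that starts the pathway, was at 0.727, 0.871 and 5.45 FPKM in the HFD libraries and 5.83, 0.755 and 3.22 FPKM in the NC libraries, with full overlap. It is named for its role, after its values were seen.

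Glul, the glutamine synthetase gene, was the third of these genes, in the list of arginine and glutamine use (9 tested, 5 positive, 4 negative, median 0.01). It stood at 73.5, 57.5 and 94.0 FPKM in the HFD libraries and 49.2, 53.7 and 42.7 FPKM in the NC libraries, without overlap (log2 fold change 0.59, SE 0.23, limma adjusted p = 0.9998). Osmolyte genes, with the volume-regulated channel subunits Lrrc8a, Lrrc8c and Lrrc8d through which cells release taurine, had 3 positive and 2 negative of 5 tested (median 0.18). Genes that sense amino acids for mTORC1 and GCN2 had 7 positive and 12 negative of 19 tested (median −0.04), with all HFD libraries below all NC libraries in 2, Sesn3 and Lamtor1, both named after their values were seen, where 4.88% of all tested genes had this pattern. Genes under ATF4, an amino acid response factor that is also known to induce several of the 10 transporters, had 9 positive and 5 negative of 14 tested (median 0.07).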

How the data were processed

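mRNA-seq libraries of total RNA (Trizol extraction and a VAHTS kit, per the labels' protocols) were deposited as 1 table of FPKM values, computed by the authors per gene and library. Per the submitters' processing notes the build was mm10 and HISAT2 2.2.1 and Trimmomatic 0.38 were among the tools, and HTSeq 0.13.5 and DESeq2 1.18.1 are listed too, with no roles given. Symbols were matched by gene identifier for 23718 of 23808 genes. Among 701 genes under 0.3 FPKM, 2.28 to 2.85% of ratios to NC 1 lay within 0.02 (log2) of the commonest, so no reads were recovered and counting error is unknown.

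Values were taken as log2(FPKM + 1) and genes averaging 1 FPKM or more were fitted with limma 3.58.1 under R 4.3.3 (empirical Bayes with a trend, two-sided, Benjamini-Hochberg over 11456 genes, threshold 0.05, no covariate). The fit was tested on simulated data with independent noise. It called 15.5% of 200 genes changed by 1 (log2), with 2 false calls, and 90.0% of 200 genes changed by 2, with 9 false calls. The changed genes were drawn from those with a mean log2(FPKM + 1) above 2, which leaves out Slc7a1 and Slc38a1. The exact sign-flip tests computed for neighbouring levels are not used, because the pairs were ordered on the same 6 libraries. The members, the 6 pathway and 11 marker lists, the motifs and the rule for named genes were chosen with earlier results of these data known. That rule took all 10 transporters, up to 3 genes per list and direction with an unadjusted p under 0.05, and the 5 genes most like Slc6a6. Of 184 listed genes 178 were matched, and 1 marker gene is not reported here. Alternatives were another pseudocount, 2 other filters, 3 scalings, eBayes without trend, the replicate number as a block and each library left out. Plots used matplotlib 3.10.9 (Python 3.11.15).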

Additional observations from a re-analysis of the deposited data

How the results depend on the processing

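Of 83 log2 differences computed for the 6 tested transporters over 14 alternatives, 2 changed sign, Slc38a1 without HFD 2 and Slc38a2 without HFD 3. Filters, eBayes without trend and the replicate block leave these differences as they are by construction, so stability is read only from scalings, the other pseudocount and left-out libraries, where Slc1a5 ran from 0.15 to 0.87. The median of 0.21 was 0.13 without HFD 3, 0.14 without NC 2 and at most 0.28 with 1 library left out. It was 0.31 with the filter of at least 1 FPKM in at least 3 libraries, which left out Slc38a1, and 0.05 over all 10 genes without a filter. Under the alternatives run, 0 list members passed the threshold. The count of genes past the threshold over the whole table was 0, and 73 with the replicate number as a block. Deviations of equal numbers correlated at 0.193, 0.0864 and 0.275. Those of unequal numbers ran from −0.361 (HFD 1 with NC 3) to 0.251 (HFD 1 with NC 2). The labels do not say whether equal numbers share a batch, and these correlations cannot settle it. Leaving out 1 library gave 0 to 1 genes, the 1 without NC 2. Depth is unknown, so counting error could not be set beside any value.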
